A study of Mus musculus with 2 samples.

Results

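YY1 occupancy was described at 10 genes that control hypusine and polyamines: Dhps, Dohh, Eif5a, Oaz1, Oaz2, Azin1, Odc1, Srm, Sms and Amd1, a fixed list out of 21887 protein-coding genes. A gene was counted as carrying YY1 where the summit of a listed peak lay inside it or within 1 kb of either end. YY1 is a zinc finger transcription factor, and the title of the series links its blocking in adipocytes to spermidine, a polyamine. Both libraries were made from mature adipocytes, floated off collagenase-digested inguinal subcutaneous fat (iWAT). The donors were male C57 mice of wild-type genotype, 8 to 10 weeks old. The mice had been kept at room temperature in one group and under cold stress for 7 days in the other, with 1 library per group. The sample titles name the assay as ChIP-seq, but the labels' protocols describe CUT&Tag, and the protocols were followed here. In CUT&Tag a transposase tethered to the anti-YY1 antibody cuts the DNA beside the bound protein.

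Spermidine is made from putrescine, and ornithine decarboxylase (Odc1) makes the putrescine. Antizymes send ornithine decarboxylase to the proteasome when polyamines are plentiful, and the antizyme inhibitor (Azin1) binds antizymes in its place. Spermidine also donates the side chain that turns 1 lysine of the translation factor eIF5A into hypusine, first through deoxyhypusine synthase (Dhps) and then through deoxyhypusine hydroxylase (Dohh).

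The room temperature list held 165 entries and the cold list 1259. From the lowest listed backgrounds, the cold library was estimated to be 1.05 times as deep as the other. Peaks are named with a 30 at room temperature and with a 4 after cold. What these numbers mean is not stated in the labels, which were followed here. Of 42 marker genes of adipocytes and of the other cell types of the fat pad, 0 carried a room temperature peak and 1, the endothelial gene Pecam1, a cold peak. Of all protein-coding genes, 0.864% carried a room temperature peak and 6.42% a cold peak. Binding at a gene does not measure its expression, so these counts do not test which cells were collected. With 1 library per group, no difference between the groups could be tested.

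After cold, 3 of the 10 genes carried a YY1 peak: Dhps, Dohh and Oaz1 (30%, exact 95% Clopper-Pearson interval 6.67 to 65.2). Over the genome, 6.42% of protein-coding genes had one. Over the alternative settings the members' count was the same. The genome share ran from 5.03% (nearest gene end only) to 6.89% (window of 3 kb). Only the 3 kb share lay inside that interval, and the 6.42% lay just below it. The 10 genes were chosen with these peaks known, so their count is a description and the interval is no test against the genome. At room temperature 0 of the 10 carried a peak (0 to 30.8), against 0.864% of protein-coding genes. By role, both enzymes of hypusine synthesis had a peak and their substrate gene Eif5a had none (2 of 3, interval 9.43 to 99.2). Among the antizymes with their inhibitor 1 of 3 had one (0.84 to 90.6), and among the synthesis enzymes 0 of 4 (0 to 60.2). With 3 or 4 genes a role these intervals overlap, so the roles could not be told apart.

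The sequences around the 3 bound starts are shown because each holds the YY1 motif close to the summit. They are RefSeq promoter windows of build GRCm38.p6 (mm10), from 250 bases before the transcription start through the first 30 transcribed bases. All 3 are on the plus strand, with the 8 letters of the motif AANATGGC, or of its reverse complement, in capitals. They lie at chr8:85071507-85071786 for Dhps, chr10:81384184-81384463 for Dohh and chr10:80826406-80826685 for Oaz1.
Dhps: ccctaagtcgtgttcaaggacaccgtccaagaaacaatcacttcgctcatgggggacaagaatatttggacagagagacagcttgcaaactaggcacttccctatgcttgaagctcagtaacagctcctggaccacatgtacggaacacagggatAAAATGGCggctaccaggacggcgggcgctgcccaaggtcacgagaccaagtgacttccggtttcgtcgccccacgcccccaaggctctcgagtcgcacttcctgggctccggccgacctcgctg
Dohh: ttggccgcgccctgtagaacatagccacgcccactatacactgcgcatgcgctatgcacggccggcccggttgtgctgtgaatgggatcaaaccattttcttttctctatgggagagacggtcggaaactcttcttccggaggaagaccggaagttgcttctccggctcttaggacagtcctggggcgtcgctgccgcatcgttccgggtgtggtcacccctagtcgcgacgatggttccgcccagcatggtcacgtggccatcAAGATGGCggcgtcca
Oaz1: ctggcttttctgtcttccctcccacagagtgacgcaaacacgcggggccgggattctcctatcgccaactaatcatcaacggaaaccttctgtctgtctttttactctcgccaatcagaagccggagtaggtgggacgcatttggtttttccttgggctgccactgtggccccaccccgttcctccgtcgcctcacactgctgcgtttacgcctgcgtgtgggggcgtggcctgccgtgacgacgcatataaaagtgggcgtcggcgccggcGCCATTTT

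Read on the strand that spells the motif, the sites are AAAATGGC in Dhps and Oaz1 and AAGATGGC in Dohh. They are shown with 8 bases of flank on each side. The match runs with the gene in Dhps and Dohh and against it in Oaz1.
Dhps: acagggatAAAATGGCggctacca
Dohh: tggccatcAAGATGGCggcgtcca
Oaz1: ccgttcgcAAAATGGCgccggcgc

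Dhps, whose enzyme starts hypusine synthesis, carried a cold peak of 331 bp (mm10, chromosome 8, 85071498 to 85071828). Its summit held 27 fragments (exact 95% Poisson interval 17.8 to 39.3) on a local background of 0.822 fragments. This gave a fold enrichment of 15.4 and a −log10 q of 27.6, both as the authors deposited them. The summit lay inside the gene record, 165 bp from its nearer end, but 106 bp before the start that the promoter table gives for Dhps. The motif began 95 bases before that start, and its nearer edge was 11 bp from the summit. No other protein-coding or lncRNA gene reached to within 1 kb of this summit. At room temperature Dhps had no entry.

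Dohh, whose enzyme completes hypusine, carried the broadest of the 3 peaks, at 550 bp (chromosome 10, 81384304 to 81384853). It was wider than 85.6% of the cold entries, whose median width was 366 bp (quartiles 299 and 461). The summit held 23 fragments (14.6 to 34.5) on a background of 1.33, with a fold enrichment of 10.3 and a −log10 q of 17.1. It lay 51 bp after the start, and the motif, which began 14 bases after the start, was 30 bp from it. The lncRNA gene Gm48551 shares the start base and the strand of Dohh, so the peak lies at the start of both genes. At room temperature the nearest summit was 642 kb away.

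Eif5a, which encodes the protein that carries hypusine, had no peak in either list. The nearest cold summit was 58.9 kb away at Elp5 and Ctdnep1, a tRNA-modification gene and a nuclear envelope phosphatase gene, with 17 fragments (9.9 to 27.2). The nearest room temperature summit was 2874 kb away, between Cyb5d2 and Zzef1. RefSeq gives 6 windows for Eif5a, and AANATGGC was in none of them. Binding was thus listed at both enzyme genes and not at the gene of their substrate.

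Oaz1, the main antizyme gene, carried the strongest of the 3 peaks (chromosome 10, 80826552 to 80826973, 422 bp wide). Its summit held 31 fragments (21.1 to 44) on a background of 0.855, with a fold enrichment of 17.3 and a −log10 q of 33.2. It lay 67 bp after the start, 38 bp from the motif, and no other gene reached to within 1 kb of it. The room temperature summit nearest to Oaz1 was 84.5 kb away, at the adaptor complex gene Ap3d1, with 14 fragments (7.65 to 23.5). The Oaz1 and Dohh summits were 558 kb apart on chromosome 10.

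Oaz2, which encodes a second antizyme, had no peak, and its nearest cold summit, of 8 fragments (3.45 to 15.8), lay 1.26 Mb away near the ribosomal protein gene Rps27l. Azin1, the antizyme inhibitor gene, had none either, and its nearest cold summit was 1.35 Mb away among the lncRNA genes Gm41301, Gm41302 and Gm34820. At room temperature these distances were 21.3 and 41 Mb, to Vps11 and Ddx17. Within this role, YY1 was listed at 1 antizyme gene and neither at the other one nor at the gene of their inhibitor.

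The order of the 3 cold pileups was Oaz1, Dhps and Dohh, but their Poisson intervals overlapped and neighbours in that order did not differ beyond counting error. In the cold list they ranked 259, 356 and 500 of 1259 by pileup, above 77.8%, 69.5% and 57.4% of the entries. Intervals cover counting error only, and the fragments may include PCR copies. How much of each pileup comes from tagging of open chromatin at a start was not tested. The local backgrounds were recovered from the deposited values, and the labels do not state whether a control library supplied them.

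**Figure D1:**
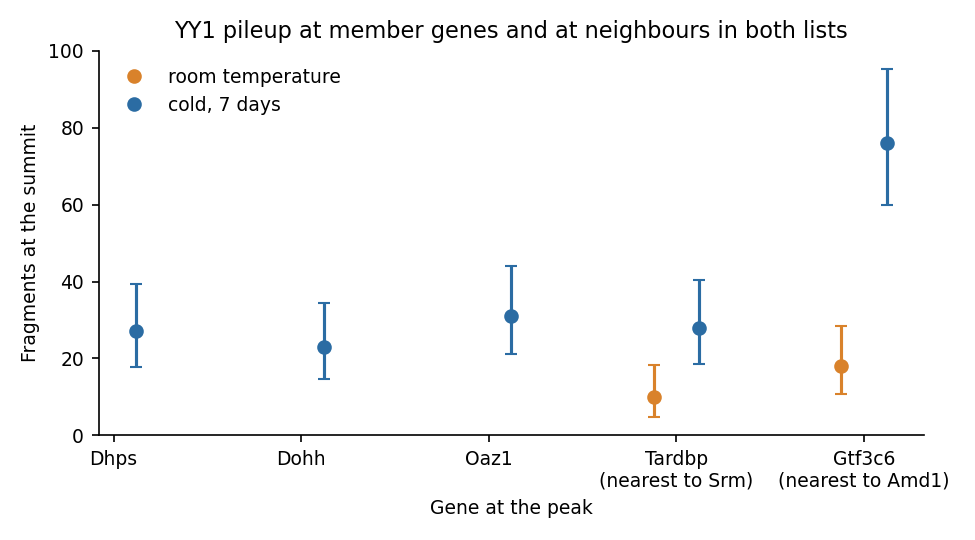
Fragments at the summit (y axis) for the cold peaks at Dhps, Dohh and Oaz1 and for the peaks nearest to Srm and Amd1, with exact 95% Poisson intervals as bars. The 3 members have a cold value only, 23 to 31 fragments, while Tardbp and Gtf3c6 have a value in both libraries.

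**Figure D2:**
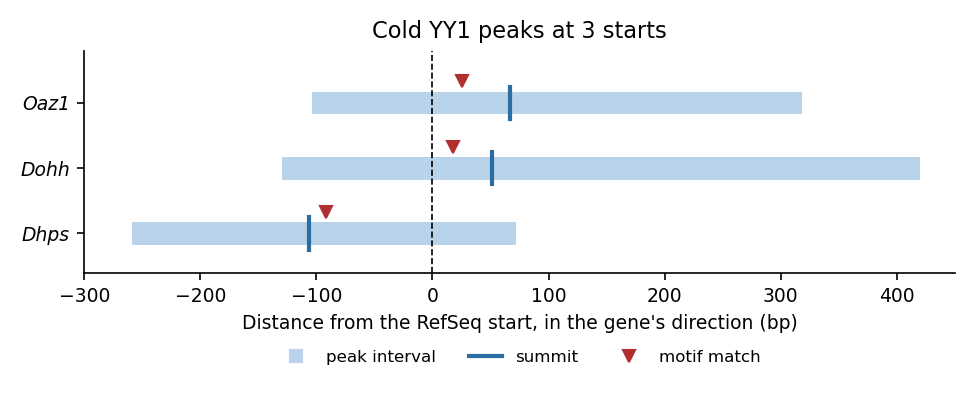
Position of the cold peak interval, its summit and the AANATGGC match along the distance from the RefSeq start in the gene's direction (x axis, bp). The matches lie 11, 30 and 38 bp from the summits of Dhps, Dohh and Oaz1, and the Dhps summit lies before the start while the other 2 lie after it.

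The 4 synthesis enzyme genes had no peak in either library. Odc1, the gene of the step that makes putrescine, was the farthest from one: its nearest cold summit lay 4.28 Mb away at Nbas, with 22 fragments (13.8 to 33.3), and its nearest room temperature summit 63.1 Mb away at Erh and Slc39a9. Sms, which encodes spermine synthase and is X-linked, had its nearest cold summit at 3.72 Mb, at Nbdy with 11 fragments (5.49 to 19.7). At room temperature the nearest summit to Sms was 51.5 Mb away, at the chromatin remodeller gene Atrx.

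Srm and Amd1 differed from the other 2 in having a peak of a neighbouring gene close by in both lists. Srm, the spermidine synthase gene, lay 32.1 kb from a peak at Tardbp, which encodes an RNA-binding protein. That peak held 10 fragments in the room temperature library (4.8 to 18.4) and 28 in the cold one (18.6 to 40.5), 2.8 times as many. Amd1 encodes the decarboxylase that supplies aminopropyl groups, and it lay 29.8 kb from a peak at Gtf3c6, a gene of RNA polymerase III transcription. There the room temperature pileup was 18 (10.7 to 28.4) and the cold pileup 76 (59.9 to 95.1), a ratio of 4.22. The 2 Poisson intervals do not overlap at either gene, though at Tardbp they nearly meet, and neither ratio has a replicate check.

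Across the 7 members without a cold peak the distance to the nearest cold summit ran from 29.8 kb to 4.28 Mb, with a median of 1256 kb. For the 20481 protein-coding genes without a cold peak the median was 547 kb (quartiles 143 and 1857). At room temperature the median over the 10 members was 1758 kb, against 4384 kb for the 21442 genes without a peak on chromosomes that had an entry (quartiles 1405 and 10989). In both libraries the members' median lay within the quartiles of these genes.

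**Figure D3:**
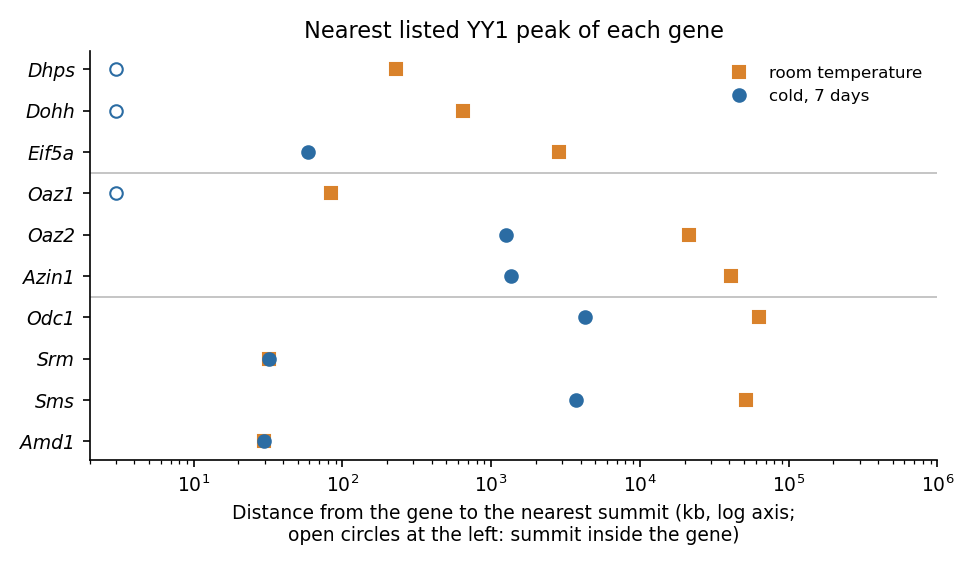
Distance from each gene to the nearest listed summit in kb on a log axis (x axis), with squares for room temperature and circles for cold, and grey lines between the 3 roles. Open circles at the left mark the summits inside Dhps, Dohh and Oaz1, and the 2 symbols coincide at Srm and Amd1.

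An absent entry is not a measured 0, because a peak list shows only sites past its threshold, and the lowest listed pileup was 6 fragments in both lists. Of the 278 cold entries with 23 to 31 fragments, the range of the 3 members, 29 were also listed at room temperature (10.4%, 7.1 to 14.6). Those 29 had 6 to 18 fragments there, with a median of 11. Among cold entries with the same pileup as Dhps, 4 of 29 had a room temperature counterpart, against 2 of 37 for Dohh and 2 of 22 for Oaz1. So at the strength of these 3 peaks most cold entries had no room temperature counterpart, and the absence of Dhps, Dohh and Oaz1 from that list is the usual case. Of the 59 cold entries with 61 fragments or more, 74.6% had one (61.6 to 85).

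**Figure D4:**
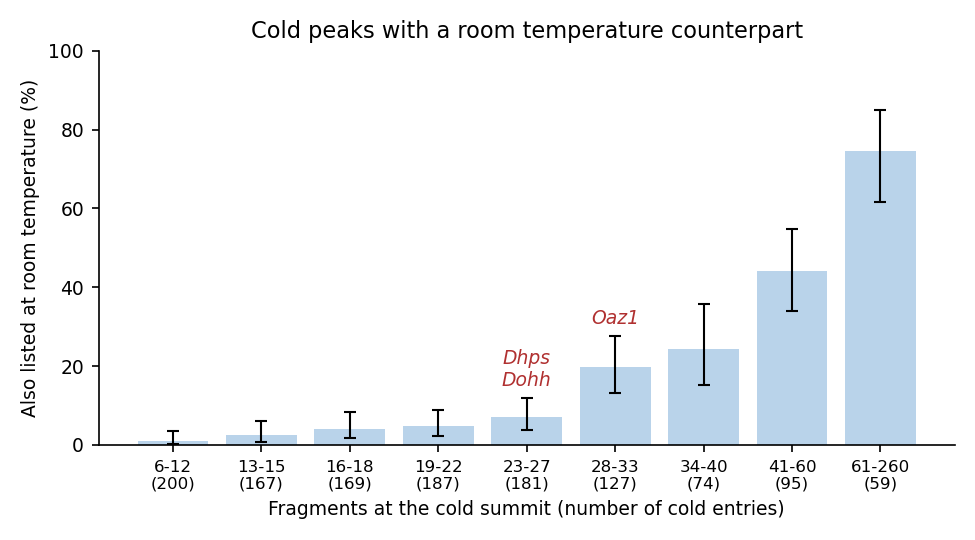
Share of cold entries that overlap a room temperature entry (y axis, percent, bars with exact 95% Clopper-Pearson intervals) by fragments at the cold summit (x axis, number of entries in parentheses). The classes that hold Dhps and Dohh (7.18%) and Oaz1 (19.7%) are far below the 74.6% of the strongest class.

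The AANATGGC motif was searched on both strands in the 300-base RefSeq promoter windows, 250 bases before and 50 after each start. Of all 32851 windows 6.05% held it (5.8 to 6.31). Of the 474 windows with a cold summit inside 73.6% held it (69.4 to 77.5), and of the 71 with a room temperature summit inside 91.5% did (82.5 to 96.8). The Dohh and Oaz1 summits lay just past the end of their windows, so windows overlapped by a cold interval were also counted, and 54.4% of these 1075 held the motif (51.4 to 57.4). In windows overlapped by a cold peak of 23 to 31 fragments the share was 62.2% (55.8 to 68.2), and in those of 6 to 12 fragments 31.4% (23.1 to 40.5).

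All 8 members with a window, 14 windows in total, were searched, and the 3 with a match were the 3 with a peak. Srm and Azin1 have no entry in the promoter table. Over all windows, 29.4% of the windows with the motif were overlapped by a cold interval (27.4 to 31.5), against 1.59% of those without it (1.45 to 1.73). Where a window held both, the motif lay a median of 35 bp from the summit (quartiles 15 and 57), so the 11, 30 and 38 bp of Dhps, Dohh and Oaz1 are ordinary values. A match is a description of the letters, and whether YY1 contacts these bases was not tested.

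The shorter letters ATGGCG, which overlap the longer motif, were present in 8.93% of all windows and in 5 members: the 3 above, Amd1 and Sms. The last 2 sites are shown as sites without a listed peak, with ATGGCG in capitals, on the minus strand of GRCm38.p6 at chr10:40302238-40302261 for Amd1 and chrX:157492270-157492300 for Sms, where the letters occur at 2 places.
Amd1: ggcggggcgATGGCGtcacttcct
Sms: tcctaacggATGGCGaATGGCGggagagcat

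GC content of the promoter window was 57% in Dhps, 60.3% in Dohh and 60% in Oaz1, with 19, 29 and 29 CpG dinucleotides. The median over windows overlapped by a cold interval was 60.7% with 23 CpG, over the windows of protein-coding genes 56.3% with 13, and over all windows 52.7% with 7. Windows of members without a peak included poorer and richer ones than those of Dhps, Dohh and Oaz1. Oaz2 had 61.7% GC and 19 CpG, Amd1 63% and 24, and Odc1 78% and 42. The Eif5a windows ran from 43.3% GC and 11 CpG to 74.7% and 46. The Sms windows had 50.3% with 12 CpG and 74.3% with 38. Whether composition sets the bound members apart was not tested. Among the 8478 windows with at least 19 CpG and no cold interval, 4.16% held AANATGGC (3.75 to 4.61).

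**Figure D5:**
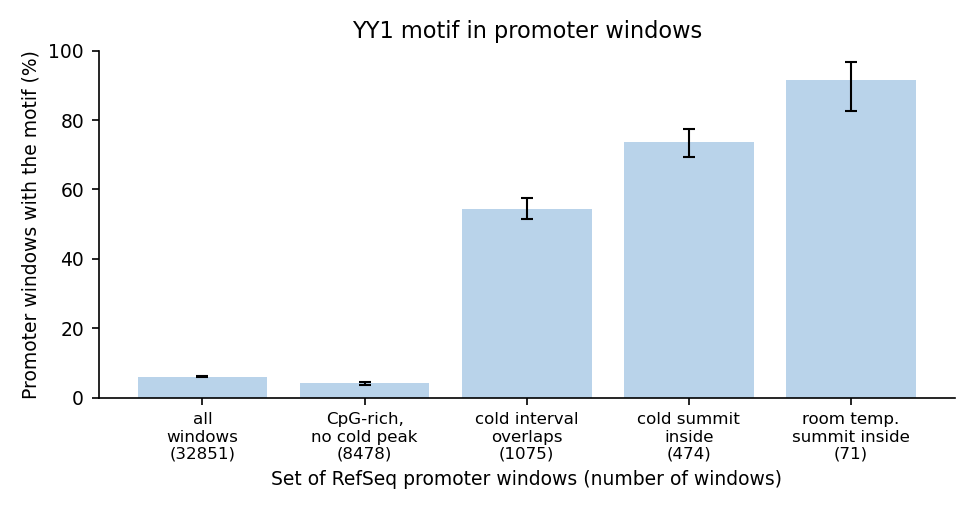
Share of RefSeq promoter windows that hold AANATGGC on either strand (y axis, percent, with exact 95% Clopper-Pearson intervals) for 5 sets of windows, which overlap in part (x axis, number of windows in parentheses). The share is 6.05% over all windows, 4.16% in CpG-rich windows without a cold peak, and 54.4% to 91.5% where a peak lies at the window.

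Beyond the 10 genes, 23 further genes were examined. They cover polyamine breakdown, transport, precursor supply and methionine salvage, and 4 relatives of the members: the antizyme gene Oaz3, the antizyme inhibitor gene Azin2, Amd2 and Eif5a2. Of the 23, 1 carried a cold peak (4.35%, 0.11 to 21.9), against the 6.42% of the genome. This was Enoph1, an enzyme gene of methionine salvage, which recycles the by-product of spermidine and spermine synthesis. Its summit held 21 fragments (13 to 32.1) and lay 189 bp outside the gene, inside the RNA-binding protein gene Hnrnpdl and 1155 bp before the start listed for Enoph1. The 22 without a cold peak were Sat1, Sat2, Smox, Paox, Oaz3, Azin2, Amd2, Eif5a2, Arg1, Arg2, Agmat, Oat, Mat2a, Mat2b, Mtap, Mri1, Apip, Adi1, Atp13a2, Atp13a3, Slc3a2 and Slc18b1. None of the 23 had a room temperature peak. Of the 17 with a promoter window only Apip, also of methionine salvage, held AANATGGC, 223 to 230 bases before its start, and its nearest cold summit was 393 kb away.

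The cold entries most like the 3 members, by equal pileup, absence from the room temperature list and 1 protein-coding gene within 1 kb, were taken over the 2 libraries. For Dhps they were the peaks at Grwd1, a ribosome biogenesis gene, and Srcap, a chromatin remodeller gene, both with 27 fragments. For Dohh they were those at Mrps14, a mitochondrial ribosomal protein gene, and Gpr107, both with 23. For Oaz1 they were those at Kmt2e and Cxxc1, both with 31. Equal pileups were common, at 18, 19 and 11 such entries in the order of Dhps, Dohh and Oaz1, and ties were settled by the closest fold enrichment.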

How the data were processed

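BWA, SAMtools, MACS2 and deepTools with the mm10 build are named among the tools, per the submitters' processing notes. Their versions and settings, and any control library, are not stated there. The authors called peaks per sample and not on a pool, since each library has its own deposited list. Each entry has a deposited score (10 times its −log10 p, cut to a whole number, in every one of 1424 entries), a fold enrichment at the summit (a linear ratio to local background), and −log10 p and q values, all by the authors.

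Pileups were recovered as the whole number k that satisfied fold = (k + 1) / (background + 1) together with the Poisson probability p of exceeding k fragments on that background. All entries matched within 0.0002 on the −log10 p scale. One cold entry had a second such number. On data simulated with known pileups, 165 of 165 and 1259 of 1259 were recovered. The depth ratio rests on the lowest background over the smallest peak width (245 and 248 bp), and absolute depth is unknown. Entries counted as shared where intervals overlapped by at least 1 bp.

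Genes and promoter windows came from RefSeq tables of GRCm38.p6. All 10 members and 23 other genes matched by symbol, and 8 and 17 had a promoter window. In all 1629 pairs of overlapping windows on opposite strands the sequences were reverse complements. The gene table gives no strand, so windows supplied the starts. Nothing was tested between groups, with 1 library each. Members, gene lists and tests were chosen with earlier results of these data known. Named were all members, other pathway genes, genes at their nearest summits, and the 2 most alike cold entries per bound member. One gene that this rule names is left out. Python 3.11.15, scipy 1.17.1 and pandas 2.3.3 were used. Alternatives covered the window, gene bodies, nearest gene, threshold, overlap and motif letters.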

Additional observations from a re-analysis of the deposited data

How the results depend on the processing

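Depth and the lack of replicates limit every value, and leaving out a library was not an option with 1 per group. No paired analysis was possible because the groups hold 1 library each. The 3 members with a cold peak were Dhps, Dohh and Oaz1, and 0 had one at room temperature, under windows of 500 bp and 3 kb, gene ends only, the nearest gene end only, a −log10 q of at least 3, interval overlap and, added after seeing the data, distance to a RefSeq start. Over the counts and shares, 31 alternative values stayed within 1.5 times the count or within the interval, and 6 moved. Those that stayed include every room temperature count, which was 0 throughout. The count of other pathway genes with a cold peak moved from 1 to 0 by the RefSeq start, which leaves out Enoph1. The share of all windows with the motif moved from 6.05% to 8.93% with ATGGCG, to 83.1% with CCAT and to 6.32% with 1 window a gene. In windows with a cold summit it moved from 73.6% to 98.9% with CCAT and to 54.4% where windows overlapping the interval were counted. Counting 1 window a gene and windows overlapping the interval were added after seeing the data. The share of like cold peaks listed at room temperature was 8.63% with a reciprocal overlap of 50% and 11% by −log10 q rank. The ranks and distances of single genes, 23 values, stayed within 1.5 times. For the distances this was fixed in advance. They set the summit against the interval edge, and the gap between those is tiny beside distances of 29.8 kb or more.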

Other observations

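Counts of neighbouring genes with a peak are given here beside the 6.42% (cold) and 0.864% (room temperature) of all protein-coding genes, and differences between neighbourhoods were not tested. Within 500 kb of Dhps, 8 of 39 other protein-coding genes had a cold peak (20.5%) and 3 had one at room temperature. Around Dohh 3 of 51 neighbours had a cold peak (5.88%) and 0 a room temperature peak, and around Oaz1 5 of 54 (9.26%) and 2. The shares around Dohh and Oaz1 are close to that of all genes. Eif5a, which has no peak, lay among 59 neighbours of which 10 had a cold peak (16.9%) and 0 a room temperature peak. Srm lay among 15, of which 4 had a cold peak (26.7%) and 1 a room temperature peak. Amd1 had 2 of 12 (16.7%) in both libraries. The windows around Oaz2, Azin1, Odc1 and Sms held 24, 6, 6 and 7 neighbours, and 0 of them had a peak in either library. The members without a peak thus include genes in regions with listed peaks (Eif5a, Srm, Amd1) and genes in regions without any (Oaz2, Azin1, Odc1, Sms). These windows were chosen after the data were seen, and neighbouring genes can share 1 peak.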
